A study of Mus musculus with 4 samples.

Results

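Follicular dendritic cells were sought in single-cell profiles of mouse lymph node stroma by the receptor gene Cr2 and a set of further markers, and 553 of 46638 cells met the rule. A cell needed at least 500 genes, at least 1000 unique molecular identifiers (UMIs, counts of single transcript molecules) and at most 10% mitochondrial UMIs. It then needed a Cr2 UMI, at least 2 of 7 further markers (Fcer2a, Fcgr2b, Sox9, Syt1, Snap91, Clu and Mfge8) and at least 1 of 4 stromal genes (Pdgfrb, Cxcl13, Col1a1 and Col3a1). Any UMI of the blood cell or endothelial genes Cd79a, Cd79b, Ms4a1, Ptprc or Pecam1 removed it. These counts chose the cells, so their levels are a description, and no gene was tested between the chosen cells and the rest.

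Live CD45- CD31- stromal cells came from axillary, brachial and inguinal nodes of female C57BL/6 mice aged 12 weeks, and 4 droplet libraries counted transcript 3′ ends. Notch2 cKO 1 was made from Notch2 fl/fl mice that carried Ccl19-Cre and the reporter R26R-EYFP, and control 1 from mice with Ccl19-Cre and R26R-EYFP that were not littermates (batch 1, 6 mice pooled in each library). Notch2 cKO 2 was made from Ccl19-Cre x Notch2 fl/fl mice and control 2 from Notch2 fl/fl littermates without Cre (batch 2, 3 mice pooled in each library). The title of control 2 also names Ccl19-Cre, and its genotype label was followed. The Ccl19 promoter that drives Cre is active in lymph node reticular cells, so deletion is tied to that promoter and not to follicular dendritic cells as such. Each pooled library is 1 replicate, with n = 2 per group, and the Cre and the EYFP reporter also differ between the batches' controls. Kept cells had a median of 2960 UMIs in Notch2 cKO 1, 2123 in control 1, 7605 in Notch2 cKO 2 and 6169 in control 2, and any pair of libraries shared 21 to 57 cell barcodes.

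Follicular dendritic cells are stromal cells of the B cell follicle that hold intact antigen on their surface for B cells to sample. Complement receptors (Cr2, also named CD21) and Fc receptors (Fcgr2b for IgG, Fcer2a or CD23 for IgE) bind immune complexes there, and the chemokine Cxcl13 draws B cells into the follicle. Their maintenance needs lymphotoxin and TNF from B cells, which act through NF-kB. Mfge8 bridges apoptotic cells to phagocytes in germinal centres. Notch2 is a transmembrane receptor whose cleaved tail acts in the nucleus with the DNA-binding protein RBPJ, and Hes1 is a common target.

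The cell type label fitted some of the chosen cells of batch 2, and the data of batch 1 went against it for 40 of its 41 chosen cells. Clu and Mfge8 together admitted 547 of the 553 cells, and both genes were near general in the stroma. Among T-zone reticular cells without Cr2 (at least 1 UMI each of Ccl19 and Ccl21a, none of Tnfsf11), Clu was detected in 99.4% of cells of Notch2 cKO 1, 97.0% of control 1, 95.2% of Notch2 cKO 2 and 91.8% of control 2. The other 5 genes (Fcer2a, Fcgr2b, Sox9, Syt1 and Snap91, here the restricted markers) were therefore used to split the cells. They were not confined to cells with Cr2. Among stromal cells without Cr2, exactly 1 was detected in 1219 of 7373 cells of Notch2 cKO 1 and 543 of 8318 of control 1. In batch 2 it was 1982 of 10347 in Notch2 cKO 2 and 1685 of 14290 in control 2. Among the 553 chosen cells, none of the 5 was detected in 255, 1 was detected in 87, and 2 to 5 were detected in 211. This split was made after the values were seen.

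All 211 cells with 2 to 5 restricted markers came from batch 2, 70 of 169 chosen cells from Notch2 cKO 2 and 141 of 343 from control 2. Batch 1 had 0 among its 7 chosen cells from Notch2 cKO 1 and 34 from control 1, and the 3 batch 1 cells with 1 restricted marker carried it in Sox9. For these counts of 0 the exact 95% interval reaches 0.0472% of cells in Notch2 cKO 1 and 0.0407% in control 1. In batch 2 the share was 0.549% in Notch2 cKO 2 (exact 95% interval 0.428 to 0.693) and 0.829% in control 2 (0.698 to 0.977). Depth was lower in batch 1, so every cell was thinned to 1000 UMIs: 29 cells (0.227%) in Notch2 cKO 2 and 63 (0.370%) in control 2 still held Cr2 and 2 restricted markers, against 0 in both batch 1 libraries. Thinning evens depth only. The matrices of batch 1 and batch 2 were also written by different Cell Ranger versions (5.0.1 and 7.1.0), whose part in these counts was not tested. The 211 cells are called follicular dendritic-like below. None of the 41 chosen cells of batch 1 held Fcgr2b, Fcer2a, Syt1 or Snap91, and every test that includes them is given with that limit. One of them, a control 1 cell of 3066 UMIs with Sox9, had 6 Cr2 UMIs, 8 of the 20 leading genes outside the rule that are described below, 0.326% of its UMIs in Cxcl13 and 0.0326% in the T-zone chemokine Ccl21a. The other 40 had 1 Cr2 UMI each and at most 2 of the 20 genes. With 1 restricted marker, this cell was not counted as follicular dendritic-like.

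**Figure D1:**
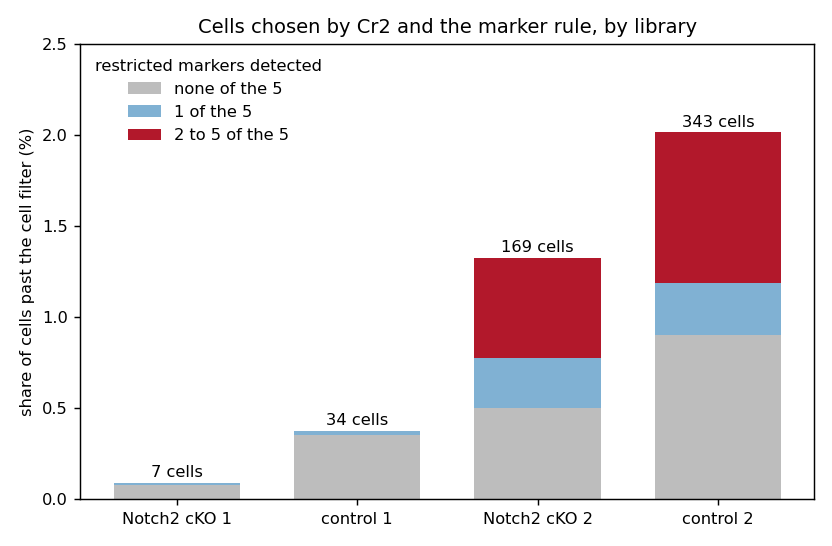
Share of kept cells (%) chosen by the Cr2 rule in each library, split by how many of the 5 restricted markers were detected. Cells with 2 to 5 of them appear in Notch2 cKO 2 (0.549%) and control 2 (0.829%) and in neither library of batch 1.

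Cr2, which chose every cell, differed between the same groups, with overlap. The median follicular dendritic-like cell had 13.5 Cr2 UMIs in Notch2 cKO 2 and 17 in control 2, with maxima of 76 and 116. A single Cr2 UMI was found in 8 of these 70 cells in Notch2 cKO 2 and 13 of 141 in control 2. With 2 restricted markers the median was 5.5 UMIs in Notch2 cKO 2 and 4.5 in control 2. Chosen cells without a restricted marker reached 10 UMIs in Notch2 cKO 2 and 7 in control 2. Of the chosen cells without a restricted marker, 57 of 64 in Notch2 cKO 2, 135 of 153 in control 2, 6 of 6 in Notch2 cKO 1 and 32 of 32 in control 1 had a single Cr2 UMI. A wider T-zone set took stromal cells with Ccl19 and Ccl21a UMIs and no restricted marker, whatever their Tnfsf11, chosen cells included. Cr2 was detected in 0.121% of them in Notch2 cKO 1, 0.514% in control 1, 0.891% in Notch2 cKO 2 and 1.52% in control 2. Of the cells with Cr2, 0, 0, 6 and 15 held 2 or more UMIs. Smooth muscle cells (Myh11 and Cnn1) held Cr2 in 0 of 97 cells in Notch2 cKO 2 and 1 of 229 in control 2. The T-zone shares include the chosen cells themselves and are a description.

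**Figure D2:**
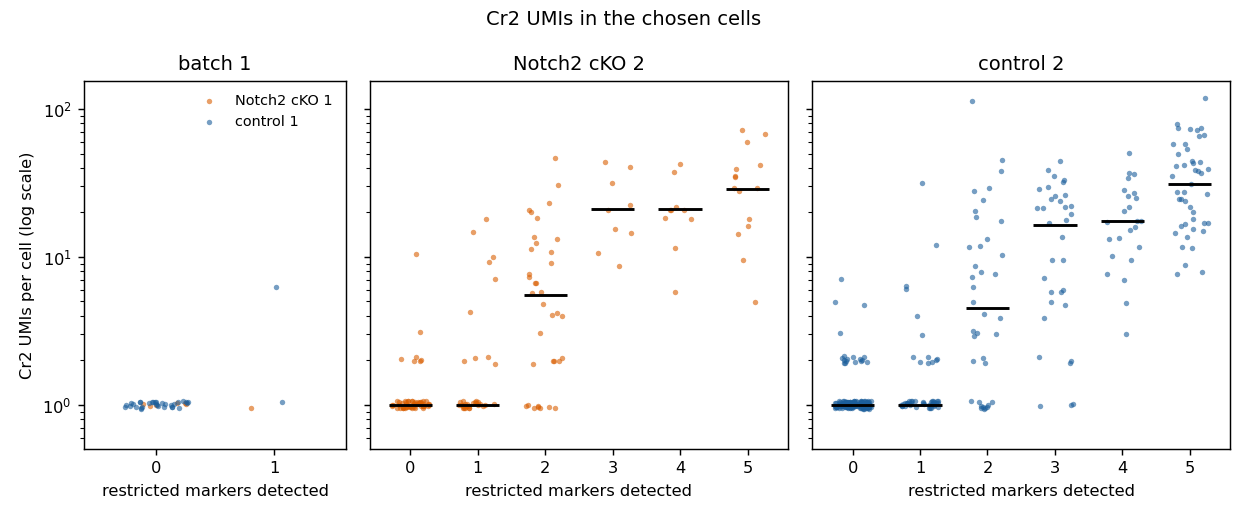
Cr2 UMIs per cell (log axis, points spread slightly to separate them) against the number of restricted markers, for each of the 553 cells. Bars are medians: with 5 restricted markers they lie at 29 UMIs in Notch2 cKO 2 and 31 in control 2, and with none at 1 UMI in both.

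Cells just outside the rule show what the threshold divides. In batch 2, 106 cells of Notch2 cKO 2 and 77 of control 2 had 2 or more restricted markers and no Cr2 UMI. Their summed Fcer2a was 1.96 counts per 1000000 UMIs (CPM) in Notch2 cKO 2 and 11.6 CPM in control 2, against 251 CPM in the follicular dendritic-like cells of Notch2 cKO 2 and 251 CPM in those of control 2. Ccl21a, a T-zone chemokine, was 8542 CPM in these cells of Notch2 cKO 2 and 5451 CPM in those of control 2, several times the 1387 CPM (Notch2 cKO 2) and 1598 CPM (control 2) of the cells inside. A further 7 and 6 cells had Cr2 and 2 restricted markers and were lost to the B cell genes alone, and their levels of Syt1, itself a rule gene, were 1241 CPM in Notch2 cKO 2 and 1173 CPM in control 2, against 1804 and 1409.8 CPM inside. Pde7b and Nrxn3, outside the rule, were lower in these few cells than inside. Pde7b, a cAMP phosphodiesterase, had 550.1 CPM in Notch2 cKO 2 and 63.7 CPM in control 2 against 813 and 697 CPM inside, and Nrxn3, a synaptic adhesion gene, had 324 and 0 CPM against 498 and 212 CPM.

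Markers of other cell types were checked in the 211 cells. Of 13 B cell markers, 3 of which the rule set to 0, 9 were at 0 in each library and the list summed to 15.3 CPM in Notch2 cKO 2 and 29.1 CPM in control 2. T cell markers summed to 0 and 3.39 CPM, macrophage markers to 19.9 and 42.0 CPM, and blood and lymphatic endothelial markers to 32.1 and 43.4 CPM, in that order of libraries. Pericyte markers summed to 1125 CPM in Notch2 cKO 2 and 1026 CPM in control 2, and smooth muscle markers to 613 and 584 CPM. The marginal gate had similar sums (pericyte 1167 and 1090 CPM, smooth muscle 417 and 496 CPM), and the part of these 2 lists in the results was not tested.

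Among the antigen receptors, both Fc receptors were frequent in the follicular dendritic-like cells and rare in T-zone reticular cells, and both are genes that chose the cells. Fcer2a was found in 38.6% of them in Notch2 cKO 2 and 50.4% in control 2, against 0.282% and 0.452% of T-zone reticular cells of the same libraries. Fcgr2b, an inhibitory IgG receptor elsewhere in the immune system, was found in 48.6% and 58.9%, against 0.949% and 0.720%. Median depths were 8366 and 9598 UMIs in the follicular dendritic-like cells and 8839 and 6305 UMIs in the T-zone cells. Both receptors were seen in 22 of 70 cells of Notch2 cKO 2 and 62 of 141 of control 2, and neither was seen in 31 and 49 cells.

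Fcamr, a receptor for IgM and IgA that the rule did not use, had 79.5 CPM in the follicular dendritic-like cells of Notch2 cKO 2 and 61.7 CPM in those of control 2, against 0 and 0.0518 CPM in marginal reticular cells (at least 1 UMI each of Tnfsf11 and Cxcl13, no Cr2). Of the other Fc receptors, the activating Fcgr1, Fcgr3 and Fcgr4 and their signalling chain Fcer1g had no UMI in these cells. The neonatal receptor Fcgrt was lower, at 44.3 CPM in Notch2 cKO 2 and 25.1 CPM in control 2 against 146 and 129 CPM in marginal reticular cells.

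Syt1, a vesicle calcium sensor known from neurons, was in 98.6% of the follicular dendritic-like cells of Notch2 cKO 2 and 95.7% of those of control 2. Snap91, an adaptor of clathrin-coated vesicles, was in 44.3% and 68.1%. Both are restricted markers that chose these cells. Snap25, a partner of Syt1 in neurons, had no UMI. Of 17 listed presynaptic genes 6 reached 20 CPM and could be compared, and the 2 at least 2-fold above both gates in both libraries were Syt1 and Snap91 themselves, so 0 of the 4 others passed that mark, beside 8.27% of 6562 genes outside the rule. The cartilage factor Sox9, also a restricted marker, was in 75.7% and 80.9% of cells. The cartilage collagens Col2a1, Col9a1 and Col11a1 had no UMI in these cells. Col9a2 (3.06 and 4.74 CPM) and Col9a3 (9.17 and 4.07 CPM) were low. Of 17 listed cartilage genes 4 reached 20 CPM, among them Sox5 (234 and 220 CPM) and Cilp (567 and 455 CPM). Sox9 and Coch were the 2 at least 2-fold above both gates in both libraries.

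Cxcl13 was detected in nearly every follicular dendritic-like cell. Its share of a cell's UMIs had a median of 1.93% in both libraries, with maxima of 12.0% in Notch2 cKO 2 and 10.6% in control 2, and 1 of the 211 cells had no Cxcl13 UMI. Summed levels were 23301 CPM in Notch2 cKO 2 and 25515 CPM in control 2, against 5748 and 2749.6 CPM in marginal reticular cells, which were chosen to hold at least 1 Cxcl13 UMI, and 1108 and 661 CPM in T-zone reticular cells. Chosen cells without a restricted marker had 3445 CPM in Notch2 cKO 2 and 1459 CPM in control 2, between these 2 gates. In batch 1 the chosen cells had 867 CPM in Notch2 cKO 1 and 135 CPM in control 1.

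Promoter sequences of Cr2 (ENSMUSG00000026616, chromosome 1, 195136811 to 195176716), of Cxcl13 (ENSMUSG00000023078, chromosome 5, 95956951 to 95961068) and of Madcam1 (ENSMUSG00000020310, chromosome 10, 79664559 to 79668537) are shown because these genes mark the follicular stroma and bear on the question of Notch signalling (mm10 gene positions). Each runs from 250 bases before to 50 after a transcript start (RefSeq, GRCm38.p6), and capitals mark TGGGAA on either strand (read as TTCCCA on the other), the core recognised by RBPJ.
Cr2, chr1:195176670-195176969, minus strand: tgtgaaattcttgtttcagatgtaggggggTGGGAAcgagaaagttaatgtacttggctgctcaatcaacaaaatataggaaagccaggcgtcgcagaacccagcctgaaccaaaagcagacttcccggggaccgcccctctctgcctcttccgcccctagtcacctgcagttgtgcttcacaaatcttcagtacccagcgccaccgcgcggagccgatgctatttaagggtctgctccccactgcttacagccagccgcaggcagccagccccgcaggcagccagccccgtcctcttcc
Cxcl13, chr5:95956689-95956988, plus strand: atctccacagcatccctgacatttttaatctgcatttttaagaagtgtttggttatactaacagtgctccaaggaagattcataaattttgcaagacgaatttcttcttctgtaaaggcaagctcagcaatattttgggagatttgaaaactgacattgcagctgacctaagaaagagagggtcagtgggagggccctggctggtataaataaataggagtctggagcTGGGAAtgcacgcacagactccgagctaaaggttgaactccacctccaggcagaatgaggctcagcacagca
Madcam1, chr10:79664309-79664608, plus strand: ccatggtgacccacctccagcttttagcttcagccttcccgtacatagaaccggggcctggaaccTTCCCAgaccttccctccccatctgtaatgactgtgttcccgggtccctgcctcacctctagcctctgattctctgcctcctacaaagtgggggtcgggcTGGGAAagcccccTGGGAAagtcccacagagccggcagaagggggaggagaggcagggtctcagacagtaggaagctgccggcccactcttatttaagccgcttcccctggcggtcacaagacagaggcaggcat
TGGGAA occurred 1 time in the windows of Cr2 and Cxcl13 and 3 times in that of Madcam1, and 25.6% of 32851 mouse promoter windows held it. Of 17 genes with a window among the 20 described below as highest outside the rule, 7 held it. A match is a description of letters and not of binding.

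Several other chemokines and survival factors were lower in the follicular dendritic-like cells than in both gates. Cxcl12, the dark zone and bone marrow chemokine, had 809 CPM in Notch2 cKO 2 and 802 CPM in control 2, against 4499 and 4528 CPM in marginal reticular cells. The T-zone chemokine Ccl21a had 1387 and 1598 CPM, against 14628 and 9669 CPM in T-zone reticular cells. The B cell survival factor BAFF (Tnfsf13b) was also lower, at 104 and 88.8 CPM against 260.1 and 189 CPM in marginal reticular cells, as was Il7, a lymphocyte survival cytokine, at 22.9 and 44.1 CPM against 83.5 and 93.9 CPM. Of 11 listed B cell chemokines and survival factors, 1 (Cxcl13, a rule gene) was at least 2-fold above both gates in both libraries and 5 were at most 0.5 times both, a mark that 5.04% of 5888 genes reached.

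Of the adhesion molecules, Madcam1 and Vcam1 were higher in the follicular dendritic-like cells and Icam1 was not. Madcam1, an addressin that binds integrin alpha4 beta7, had 157 CPM in Notch2 cKO 2 and 256 CPM in control 2, against 16.3 and 19.4 CPM in marginal reticular cells. Vcam1, a ligand of integrin alpha4 beta1, had 2168 and 2992 CPM against 924 and 1011 CPM. Icam1, a ligand of the integrin LFA-1, had 593 and 746 CPM against 901 and 894 CPM. The prion protein gene Prnp, long known to be abundant on these cells, was at 501 and 885 CPM against 127 and 125 CPM, with the highest value in control 2.

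The complement list split between binding and making complement. Cr1l (Crry), which protects cells from complement, had 498 CPM in Notch2 cKO 2 and 392 CPM in control 2, against 76.3 and 69.5 CPM in marginal reticular cells. C3, the central component, was lower at 1978 and 1731 CPM against 9802 and 8319.8 CPM. Of the 12 complement genes with 20 CPM or more, 7 were at most 0.5 times both gates in both libraries, among them C3, the components C4b, C1ra and C1s1 and the regulators Serping1 and Vtn, and 1 (Cr1l) lay 2-fold above. The alternative pathway factor Cfb went the other way, at 537 and 556 CPM against 349 and 248 CPM.

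For the uptake of apoptotic cells, Mfge8 had 9064 CPM in Notch2 cKO 2 and 8581 CPM in control 2, against 3163 and 1627 CPM in marginal reticular cells. Itgav, a subunit of the integrin that Mfge8 binds, was also higher at 501 and 537 CPM against 101 and 65.0 CPM. Its partners were not, since Itgb3 had no UMI and Itgb5 had 7.64 and 5.42 CPM against 31.2 and 30.6 CPM. Gas6, the ligand of the uptake receptors Axl and Mertk, had 73.4 and 78.6 CPM against 752 and 474 CPM, and Lrp1, an endocytic receptor, had 38.2 and 35.9 CPM against 243 and 277 CPM.

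Genes of lipid cues that position B cells were mostly near the gates. Hsd3b7, which inactivates the oxysterol cue, had 33.6 and 40.7 CPM in Notch2 cKO 2 and control 2, against 12.0 and 9.64 CPM in marginal reticular cells. S1pr3, a sphingosine-1-phosphate receptor, had 720.0 and 893 CPM against 233 and 298 CPM. These were the 2 of 10 listed genes at least 2-fold above both gates in both libraries, and against the background of 8.27% nothing is read from so small a count. Of 13 lymphotoxin and NF-kB genes, Traf3, an inhibitor of the non-canonical pathway, was the 1 that passed that mark (228 and 221 CPM against 97.4 and 74.9 CPM), a share near the background, and the receptor Ltbr had 35.2 and 28.5 CPM against 35.4 and 32.6 CPM.

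Matrix genes were low. Of 16 collagen and matrix genes, 10 were at most 0.5 times both gates, among them Col3a1 at 164 CPM in Notch2 cKO 2 and 140.3 CPM in control 2 against 730.2 and 921 CPM in marginal reticular cells, and Dcn, a small collagen-binding proteoglycan, at 1259.7 and 1169 CPM against 6287 and 6761 CPM. Col1a1 and Col3a1 could admit a cell to the rule. Postn, an adhesive matrix protein, was the exception at 850.0 and 1093 CPM against 266 and 441 CPM. The low counts in the complement and matrix lists lie above the background of 5.04%, and the lists were not tested.

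**Figure D3:**
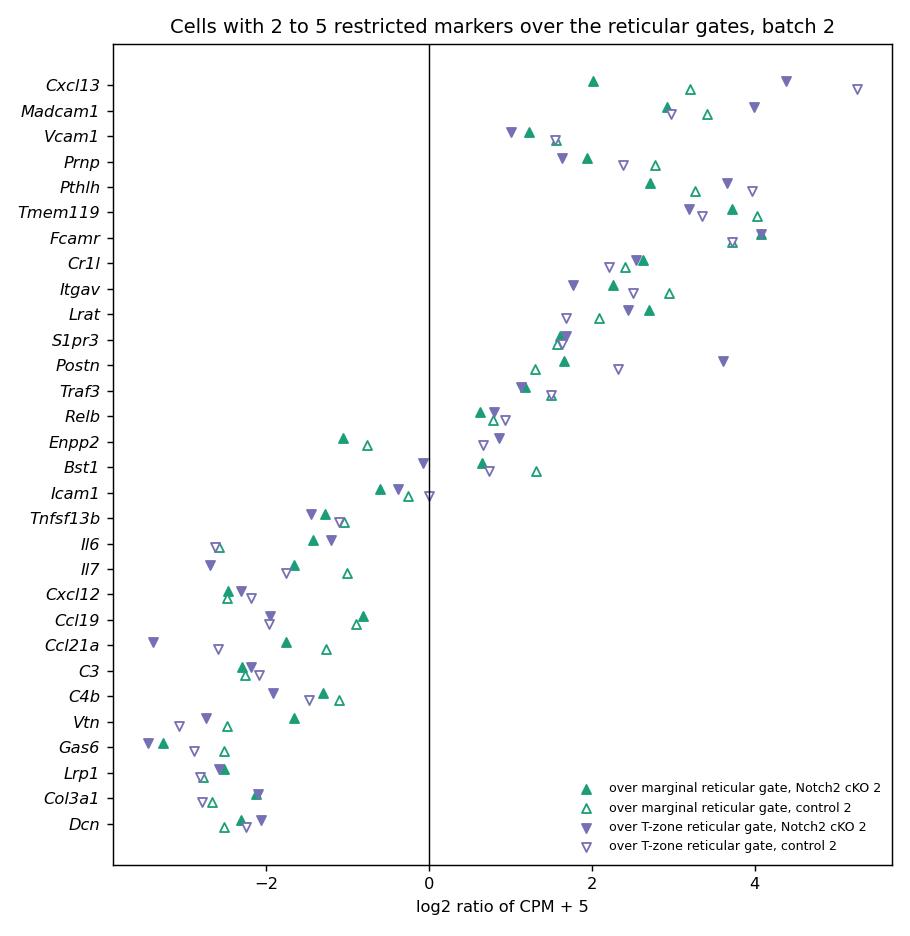
Log2 ratio of CPM + 5 in follicular dendritic-like cells over the marginal and T-zone reticular gates, in Notch2 cKO 2 (filled) and control 2 (open). Fcamr, Madcam1, Vcam1 and Cxcl13 lie to the right of 0, and most complement components, Ccl21a and most matrix genes to the left.

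The genes outside the rule with the highest ratio to both gates in the follicular dendritic-like cells of batch 2 included several known best from neurons, glia or epithelia. Slc22a23, an organic ion transporter family member, led with 258 CPM in Notch2 cKO 2 and 233 CPM in control 2, against at most 0.667 CPM in the gates. Slc1a2, a glutamate transporter of astrocytes, had 480.0 and 466 CPM against 9.80 and 4.08 CPM in T-zone reticular cells. The synaptic adhesion genes Cadm2 (1061 and 773 CPM) and Nrxn3 (498 and 212 CPM) were at most 31.7 CPM and 3.92 CPM in the T-zone cells.

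Others of the 20 leading genes have roles in signalling or metabolism. Pde7b had 813 CPM in Notch2 cKO 2 and 697 CPM in control 2, and Arsb, a lysosomal sulfatase that trims glycosaminoglycans, had 1014 and 952 CPM. Met, the receptor of hepatocyte growth factor, had 125 and 165 CPM against at most 1.43 CPM in the gates of batch 2. Itgb4, a subunit of the laminin receptor of epithelia, and Nphs1, the nephrin of kidney podocytes, lay at 135 and 112 CPM in Notch2 cKO 2 and at 153 and 146 CPM in control 2. Below the 20 came Stra6, a retinol receptor, at 102 CPM in Notch2 cKO 2 and 130.1 CPM in control 2, and Aldh1a3, which makes retinoic acid, at 147 and 143 CPM against at most 6.19 CPM in the gates of batch 2, a pair chosen after its values were seen. Over all 553 chosen cells and all 4 libraries the 20 genes of the same ranking began with Slco5a1 with a lowest ratio of 2.91 to the higher gate and ended at Clmn with 1.63. In batch 2, 132 genes were at least 5-fold and 45 at least 10-fold above both gates in both libraries.

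The 20 genes were ranked in the 211 cells, so their levels and counts there are a description. Cells with 1 restricted marker had 5 genes at least 5-fold above both gates, and cells with none had 0 of 6704, with 1 gene at least 2-fold. Of the 20 leading genes, a median of 13 were detected per follicular dendritic-like cell in Notch2 cKO 2 and 14 in control 2, against 1 per chosen cell without a restricted marker in each. The chosen cells without a restricted marker had 9726 CPM of Ccl21a in Notch2 cKO 2 and 10877 CPM in control 2, beside the 14628 and 9669 CPM of the T-zone gate. At 1000 UMIs a cell, at least 3 of the 20 genes were seen in 133 cells of Notch2 cKO 2 (1.04%) and 185 of control 2 (1.09%), against 2 cells of Notch2 cKO 1 and 1 of control 1. That 1 cell is the chosen control 1 cell with 6 Cr2 UMIs, and neither of the 2 was chosen. In batch 2, 63 of the 133 cells and 117 of the 185 were chosen, 52 and 108 of these follicular dendritic-like. The other 70 and 68 cells were not chosen, and 15 and 17 cells lay in the T-zone gate.

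**Figure D4:**
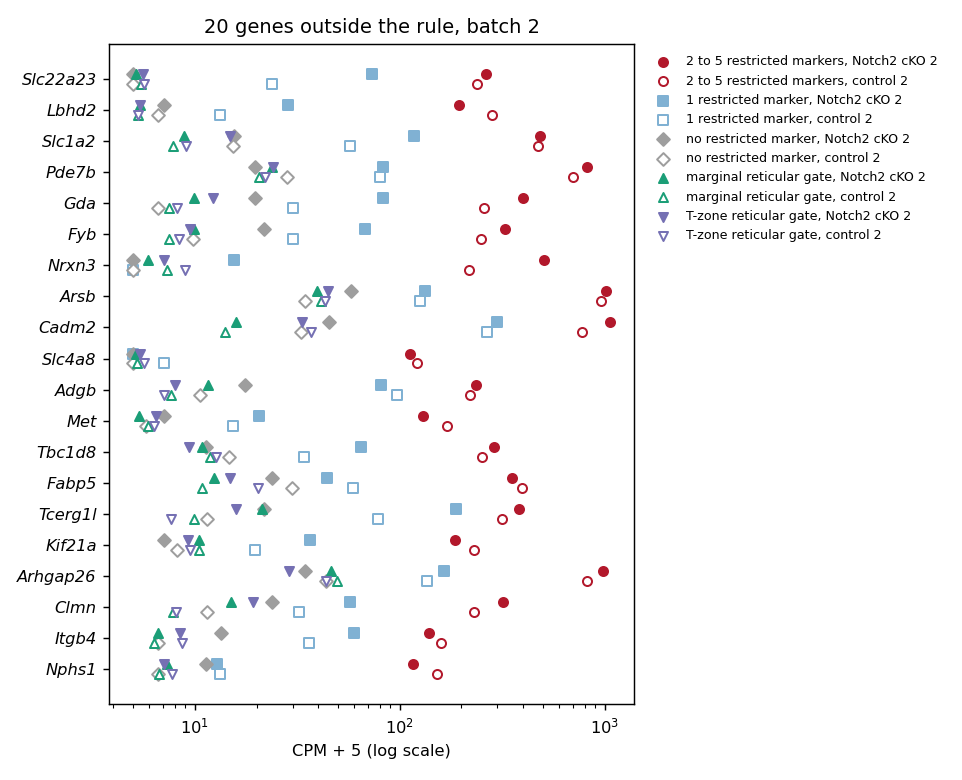
CPM + 5 (log axis) of the 20 genes outside the rule with the highest lowest ratio to both reticular gates, in batch 2 (filled, Notch2 cKO 2; open, control 2). The follicular dendritic-like cells lie to the right for each gene, cells with 1 restricted marker between for most genes, and cells with none beside the gates. Cells with 1 restricted marker had 0 CPM of Nrxn3 in control 2 and of Slc4a8 in Notch2 cKO 2.

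Among the 211 cells, several levels differed with the number of restricted markers, not always in step. With 4 or 5 of them, Pde7b had 1347 CPM in Notch2 cKO 2 and 1031 CPM in control 2, against 1382 and 417 CPM with 3 and 221 and 269.7 CPM with 2. Nrxn3 had 898 and 385 CPM with 4 or 5 markers, against 1204 and 53.7 CPM with 3 and 0 and 2.54 CPM with 2. Ccl19 was lower with 4 or 5 markers than with 2, at 360.0 and 599 CPM against 0 and 939 CPM with 3 and 897 and 1862 CPM with 2. Cxcl13 was 12814 CPM against 33722 CPM in Notch2 cKO 2, and 25827 CPM against 23593 CPM in control 2, so its order differed between the libraries. With 4 or 5, 3 and 2 markers there were 25, 9 and 36 cells in Notch2 cKO 2 and 69, 34 and 38 in control 2, and in Notch2 cKO 2 the class with 3 held the highest Nrxn3 and Pde7b and the lowest Ccl19.

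The share of all chosen cells was 0.0895% in Notch2 cKO 1 (7 of 7817), 0.376% in control 1 (34 of 9053), 1.33% in Notch2 cKO 2 (169 of 12754) and 2.02% in control 2 (343 of 17014). In each batch the Notch2 cKO library had the lower share, and the batches differed by more than the genotypes. The mean was 0.707 ± 0.874% in Notch2 cKO and 1.20 ± 1.16% in controls (SD, n = 2 each), and an exact two-sided permutation test over the 4 libraries gave p = 0.667, where the smallest p it can give is 0.333. At 1000 UMIs a cell the shares were 0.0256%, 0.0994%, 0.533% and 0.835% in the same order of libraries. The follicular dendritic-like share, from 1 library a group, was 0.549% in Notch2 cKO 2 and 0.829% in control 2. Without the Cr2 condition, cells with at least 2 restricted markers made up 1.38% (176 of 12754) in Notch2 cKO 2 and 1.28% (218 of 17014) in control 2, so the order of these libraries turned when Cr2 was not required.

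The genotype comparison asks whether removing Notch2 from Ccl19-Cre cells changes the chosen cells' transcripts. In the 211 follicular dendritic-like cells it rests on 1 library a group and carries no test. By the genotype labels, Notch2 cKO 2 carried Ccl19-Cre and control 2 did not. The presence of Cre and the loss of Notch2 therefore cannot be told apart in batch 2. Notch2 itself had 45.9 CPM in Notch2 cKO 2 (exact Poisson 95% interval 30.9 to 65.5, counting error only) and 53.5 CPM in control 2 (42.4 to 66.7). Tags from transcript 3′ ends need not read the deleted part, so this level checks nothing about the deletion. The Notch target Hes1 had 22.9 CPM in Notch2 cKO 2 (12.8 to 37.8) and 108 CPM in control 2 (91.7 to 126), a log2 ratio of -2.01 on the CPM + 5 scale beside -1.55 in marginal and -2.01 in T-zone reticular cells of the same libraries. Notch3, another receptor and Notch target, did not show this pattern, with 26.0 CPM in Notch2 cKO 2 (15.1 to 41.6) and 20.3 CPM in control 2 (13.7 to 29.0). In both libraries its level was below that of the T-zone cells, which had 59.1 CPM in Notch2 cKO 2 and 193 CPM in control 2.

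Of 6574 genes at a mean of 20 CPM or more, 1.63% were at least 2-fold higher and 2.77% at least 2-fold lower in the follicular dendritic-like cells of Notch2 cKO 2. Cr2, Fcer2a, Clu, Mfge8, Cxcl13, Snap91 and Sox9 helped to choose the cells, so their levels here are a description and say nothing of the genotype. Cr2 had 1909 CPM in Notch2 cKO 2 (1805 to 2018) and 2134 CPM in control 2 (2060 to 2209), and Fcer2a had 251 CPM in each. Cxcl13, Clu and Mfge8 had log2 ratios of -0.13, -0.06 and 0.08, while in the marginal gate their log2 ratios were 1.06, 0.62 and 0.96. Snap91 (165 CPM, 135 to 199, against 310 CPM, 283 to 340) and Sox9 (336 CPM, 293 to 384, against 563 CPM, 525 to 602) were lower in Notch2 cKO 2 within the 2-fold mark.

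Of the 15 listed follicular dendritic function genes at 20 CPM or more, none was 2-fold higher and 2 were 2-fold lower in Notch2 cKO 2. Coch, a secreted protein first known from the inner ear, had 38.2 CPM in Notch2 cKO 2 (24.7 to 56.4) and 166 CPM in control 2 (146 to 188). Il6, a cytokine that acts on germinal centre B cells, had 18.3 CPM (9.48 to 32.04) and 55.6 CPM (44.2 to 69.0). In the marginal and T-zone gates of the same libraries the log2 ratios were -0.35 and -0.31 for Coch and -2.54 and -2.80 for Il6. Hamp, a hepcidin gene added here after its value was seen, had 118 CPM in Notch2 cKO 2 and 526 CPM in control 2. Madcam1 had 157 CPM in Notch2 cKO 2 (129 to 191) and 256 CPM in control 2 (231 to 283), and Lrat, which stores retinol as ester, had 41.3 CPM (27.2 to 60.0) and 83.4 CPM (69.3 to 99.5), both short of the 2-fold mark.

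Among the largest differences of any gene, Frmd5, a cytoskeletal linker, had 9.17 CPM in Notch2 cKO 2 (3.37 to 20.0) and 128 CPM in control 2 (110 to 148). Glycam1, a mucin ligand of L-selectin, had 7.64 CPM (2.48 to 17.8) and 80.7 CPM (66.8 to 96.5), and the leptin receptor Lepr had 9.17 CPM (3.37 to 20.0) and 65.1 CPM (52.7 to 79.5). The Wnt antagonist Sfrp1 was higher, with 70.3 CPM in Notch2 cKO 2 (51.5 to 93.8) and 11.5 CPM in control 2 (6.71 to 18.5). Small housekeeping transcripts such as Ost4 and Tomm7 were also over 2-fold lower in Notch2 cKO 2, with log2 ratios of -2.13 each in these cells and of -1.67 and -1.48 in the marginal gate, and their part in the other differences was not tested.

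Of 12 genes picked because they rose in other reticular cells of these same libraries, 6 reached 20 CPM in the follicular dendritic-like cells. Of these 6, 4 were at least 2-fold higher in Notch2 cKO 2, and all 6 were in each gate. Ncam1, a neural adhesion molecule, had 200.3 CPM in Notch2 cKO 2 (167 to 238) and 82.7 CPM in control 2 (68.7 to 98.7). The exceptions were Cilp, a cartilage matrix protein, and Megf6, a secreted protein with epidermal growth factor repeats. Cilp had 567 CPM in Notch2 cKO 2 (511 to 628) and 455 CPM in control 2 (422 to 491), while T-zone reticular cells had 461 CPM in Notch2 cKO 2 and 33.4 CPM in control 2. Megf6 had 122 CPM in Notch2 cKO 2 (97.0 to 152) and 120 CPM in control 2 (103 to 139), while T-zone reticular cells had 24.9 CPM and 1.19 CPM. In the follicular dendritic-like cells of control 2, Megf6 lay above the level of T-zone cells of Notch2 cKO 2 and Cilp close to it.

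**Figure D5:**
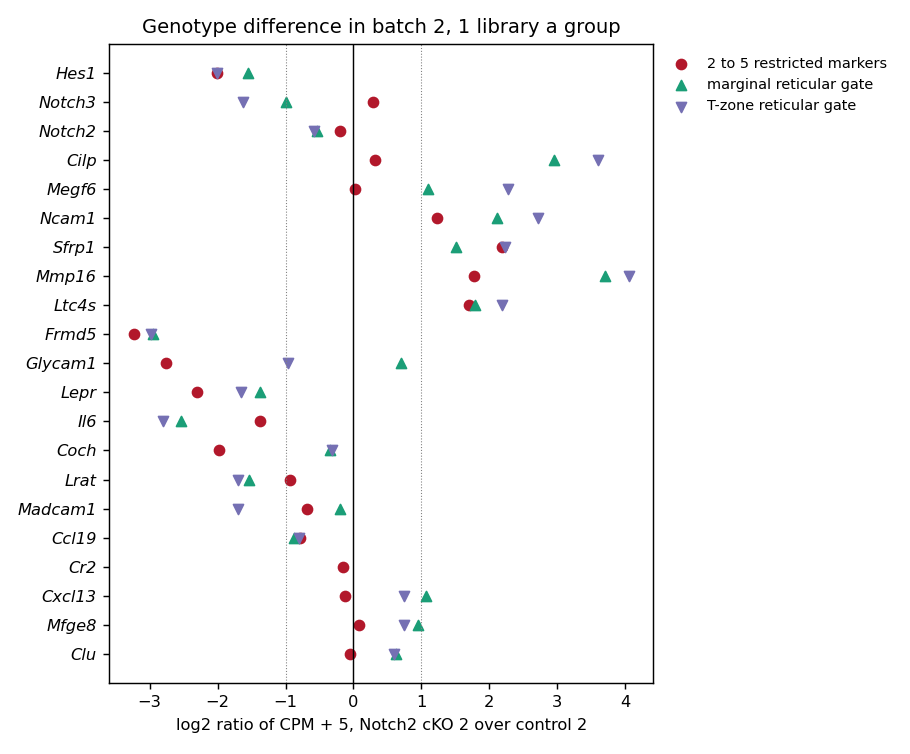
Log2 ratio of CPM + 5, Notch2 cKO 2 over control 2, in follicular dendritic-like cells and in both reticular gates; dotted lines mark 2-fold and each point is 1 library over 1 library. Hes1 lies near -2 in the follicular dendritic-like cells and the T-zone gate, and Cilp and Megf6 lie near 0 in the follicular dendritic-like cells and above 1 in both gates.

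Summed over all 553 chosen cells, the genotype was tested in the 4 libraries with edgeR's quasi-likelihood test (batch as a term, Benjamini-Hochberg threshold 0.05). Of 8584 genes, 83 passed (0.967%), 21 higher (0.245%) and 62 lower (0.722%) in Notch2 cKO. The sums held 28837 UMIs in Notch2 cKO 1 and 96476 in control 1, from cells with at most 1 restricted marker, and 1512641 in Notch2 cKO 2 and 3204427 in control 2. The calls are of the chosen cells as a whole and not of the follicular dendritic-like cells. Of the 83, 67 had 1 sign in both batches, 44 had a UMI in all 4 libraries and 7 had none in batch 1. The split depended on scaling: by library size alone, which moved the median log2 fold change of all genes to 0.15 from -0.03, edgeR called 68, with 27 higher and 41 lower, and at an unadjusted p under 0.05 255 were higher and 250 lower, against 127 and 412 with TMM. Without the batch term edgeR called 0 (23 higher and 60 lower at an unadjusted p under 0.05) and DESeq2 called 0 (21 higher and 57 lower). Fits with 1 library left out also lacked the batch term, so their calls cannot be put down to the library left out.

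Of the 16 follicular dendritic function genes, all tested, 0 were higher and 2 were lower by this test. Il6 had 0 CPM in Notch2 cKO 1, 10.4 CPM (1 UMI) in control 1, 39.0 CPM in Notch2 cKO 2 and 177 CPM in control 2, and its log2 fold change was -2.34 (SE 0.51, edgeR adjusted p = 0.00257). Coch had 0, 10.4 (1 UMI), 18.5 and 79.6 CPM in the same order (log2 -2.26, SE 0.50, edgeR adjusted p = 0.00270). Both are low in each Notch2 cKO library, but their batch 1 values rest on 1 UMI each. The list's median was -0.16, beside -0.03 over all genes tested, and 3 of its members (Icam1, Vcam1 and Enpp2, edgeR adjusted p = 0.999 each) had log2 fold changes of 0.05, -0.49 and -0.07. The list holds Cxcl13, which helped to choose the cells.

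Ccl19, the T-zone chemokine, fell, with 763 CPM in Notch2 cKO 1, 7608 CPM in control 1, 1578 CPM in Notch2 cKO 2 and 3443 CPM in control 2 (log2 -2.33, SE 0.49, edgeR adjusted p = 0.00127). Both Notch2 cKO libraries lay below both controls. In the follicular dendritic-like cells the 2 libraries had 582 and 1009 CPM, in that order of genotype. Vtn (vitronectin, adjusted p = 0.00266), the interferon-induced chemokine Cxcl10 (0.0461) and Fn1 (fibronectin, 0.0329) also fell by the same edgeR test, with log2 fold changes of -1.78, -1.44 and -1.46, and each had its lower value in Notch2 cKO 1 and Notch2 cKO 2 within their batches. Apoc1, an apolipoprotein, fell by 2.86 (adjusted p = 0.000414) and Glycam1 by 2.40 (adjusted p = 0.00127) on the log2 scale.

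Hes1 passed the test (log2 -1.87, SE 0.47, edgeR adjusted p = 0.0127), but its batches disagreed. It had 43 UMIs (28.4 CPM) in Notch2 cKO 2 and 466 UMIs (145 CPM) in control 2, yet 7 UMIs (243 CPM) in Notch2 cKO 1 and 15 UMIs (155 CPM) in control 1. The fall rests on batch 2. Notch2 (log2 -0.71, SE 0.45) and Notch3 (-1.13, SE 0.44) did not pass (edgeR adjusted p = 0.999 and 0.348), and Notch2 had 0 UMIs in Notch2 cKO 1, 4 in control 1, 60 in Notch2 cKO 2 and 178 in control 2. Of 6 Notch receptors and ligands tested none passed, and of 2 Notch targets tested Hes1 did.

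The largest rises were led by A2m, a protease inhibitor, with 69.4 CPM (2 UMIs) in Notch2 cKO 1, 0 in control 1, 22.5 CPM in Notch2 cKO 2 and 0.936 CPM in control 2 (log2 4.39, SE 0.73, edgeR adjusted p = 4.21e-06). Smoc2, a matricellular protein, rose by 4.29 (adjusted p = 3.2e-06), Mmp16, a membrane-bound matrix protease, by 3.23 (4.83e-07) and Ncam1 by 2.06 (0.00266). The secreted Wnt antagonists Sfrp1 (2.23, adjusted p = 0.0032) and Sfrp2 (2.03, 0.0132), the peptide precursor Ecrg4 (2.22, 0.00266), the matrix glycoprotein Fbln2 (2.02, 0.00257), Emp1 (2.32, 0.00266) and the leukotriene synthase Ltc4s (1.89, 0.0183) completed the 10. Of the 10 tested genes picked for rising in other reticular cells, 8 rose here, and of the 12 picked for falling, 4 fell (Ptn, Ccl19, Frmd5 and Apoc1). Those lists were chosen on these libraries and give no independent evidence.

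Among the largest falls besides Apoc1, Glycam1, Il6, Ccl19 and Coch were Hist1h2ap, a replication histone transcript (log2 -3.24, edgeR adjusted p = 4.6e-05), the paired receptor ligand Pianp (-2.85, 0.0119), the lysosome biogenesis subunit Bloc1s1 (-2.39, 0.00083) and the decoy receptor Il13ra2 (-2.34, 0.00257). Within each batch the Notch2 cKO library had the lower value for each of them. Il13ra2 had 2 UMIs in Notch2 cKO 1, 10 in control 1, 18 in Notch2 cKO 2 and 194 in control 2.

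Whether the genotype effect differed between the chosen cells and the reticular gates was tested with a cell type by genotype term (edgeR, libraries as a block). Against the marginal gate 14 of 10334 genes passed (0.135%), and against the T-zone gate 68 of 14620 (0.465%), of which 6 and 38 had no UMI in the chosen cells of batch 1. Megf6 rose less in the chosen cells, by a difference of -3.08 (SE 0.57, adjusted p = 0.000279) from the marginal gate and -4.25 (SE 0.48, adjusted p = 8.28e-15) from the T-zone gate. Cilp differed by -2.20 from the T-zone gate (SE 0.47, edgeR adjusted p = 0.00197) and by -1.60 from the marginal gate, which did not pass (adjusted p = 0.819). With a cell type by batch term the difference from the marginal gate was -1.82 (SE 0.33, edgeR adjusted p = 4.55e-05).

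The Cilp difference appeared in 1 batch. In batch 1, where every chosen cell had at most 1 restricted marker, its log2 ratio of Notch2 cKO over control was 5.14 in the chosen cells and 4.43 in T-zone cells, and in batch 2 it was 0.92 and 3.60. Leaving out control 2 turned the difference to 0.72 (edgeR adjusted p = 1). For Megf6, with 1 UMI in the chosen cells of batch 1, the same omission gave 3.21 and 7.22 with SEs larger than these values. The Hes1 effect differed by -0.33 (SE 0.55) from the marginal gate and by 0.33 (SE 0.56) from the T-zone gate, and neither passed (edgeR adjusted p = 1).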

How the data were processed

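Droplet 3′ RNA profiles of 4 pooled libraries were analysed from the deposited raw UMI count matrices, which the authors made with Cell Ranger (5.0.1, per the submitters' processing notes). Per the file headers, batch 2 was written by version 7.1.0 and batch 1 by 5.0.1, both with mm10. No source used here states whether intronic reads were counted. The members and gene lists were chosen with earlier results of these data known.

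The filter on cells (500 genes, 1000 UMIs, 10% mitochondrial UMIs) is given above, and 40 rows with a repeated gene symbol were dropped. Marginal and T-zone reticular gates were set by the presence or absence of marker UMIs, with no clustering. Cells were not removed as doublets; the alternative left out the highest Scrublet scores, at 0.8% of cells per 1000 cells, since its automatic threshold called 0 or 1 cell in 3 of the libraries. Levels are counts per 1000000 UMIs of the summed cells (CPM). Ratios without a test use CPM + 5 and genes at 20 CPM or more.

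Raw counts were summed per library and tested with edgeR 4.0.16 (R 4.3.3; quasi-likelihood, TMM, filterByExpr), with batch as a term and 1 residual degree of freedom. The labels give the batch, so libraries of one number are paired (correlation of their deviations 0.317 across 6675 genes). On simulated counts the genotype test recovered 66 of 200 genes changed 4-fold and called 1 unchanged gene of 4321. The difference test recovered 20 of 200 and called 1 unchanged gene of 4718. The simulated libraries shared a mean profile and a fixed dispersion, with no batch difference. Their rate of false calls therefore need not hold for these data. DESeq2 1.42.0 was an alternative. Shares were compared with scipy 1.17.1 by an exact permutation test, with exact Clopper-Pearson 95% intervals. Intervals cover counting error only.

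Named genes were the 10 largest rises and 10 largest falls among genes past the threshold whose sign matched between batches and with a mean of 20 CPM (leaving out haemoglobin, mitochondrial, ribosomal and predicted genes), and members of the lists. The 20 genes outside the rule were ranked by their lowest ratio to both gates over the 211 cells of batch 2, a choice made after the values were seen in place of all chosen cells. Some genes that the rule names are not reported here. Gene positions are from GENCODE vM21 on mm10.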

Additional observations from a re-analysis of the deposited data

Results flagged for a closer look

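Except where stated, the differences of the genotype effect given here between the chosen cells and a reticular gate passed the test of the difference itself (edgeR, cell type by genotype). For Smoc2 the effect was higher by 3.47 on the log2 scale than in the marginal gate (SE 0.76, adjusted p = 0.00888), past the threshold in 5 of 7 alternatives, over which it ran between 0.26 (SE 2.11, without control 2) and 4.197. For Hist1h2ap the difference from the marginal gate was -3.09 (SE 0.73, adjusted p = 0.0198), past the threshold in 3 of 7 and between -10.37 and -2.81. For Glycam1 it was -3.50 (SE 0.54, adjusted p = 8.84e-07), past it in 5 of 7 and between -10.85 and -1.79. None of these genes passed against the T-zone gate. There the differences were 2.15 (SE 0.91) for Smoc2, -1.52 (SE 0.63) for Hist1h2ap and -0.74 (SE 0.50) for Glycam1.

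For Ccl19 the difference from the T-zone gate was -0.98 (SE 0.26, adjusted p = 0.0352), past the threshold in 2 of 7 alternatives, over which it ran between -1.40 and -0.61. That gate requires a Ccl19 UMI, which limits its own change, so the value is a description and supports nothing. For Mfge8 it was -1.34 from the marginal gate (3 of 7, range -2.10 to -0.63) and -0.93 from the T-zone gate (4 of 7, range -1.73 to -0.09), but Mfge8 was 1 of the genes that could admit a cell, so these values too are a description and support nothing. The chosen cells of batch 1 had 0 UMIs of Glycam1 and Hist1h2ap in Notch2 cKO 1, and 5 and 18 in control 1.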

How the results depend on the processing

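The 83 genotype calls in the chosen cells became 0 with no replicate block (without the batch term), 0 with DESeq2, 43 with no filter on low counts, 51 with the highest Scrublet scores left out and 44 among genes with a UMI in every library, an alternative added after seeing the data. Leaving out 1 library gave 0 to 12 calls. DESeq2's size factors (66), scaling by library size (68) and a stricter cell filter (75) stayed within 1.5 times the main count. The rule with at least 2 Cr2 UMIs could not be tested because Notch2 cKO 1 had 0 such cells. The difference calls against the marginal gate (14) became 23 with a cell type by batch term and 2 to 19 with 1 library left out. Those against the T-zone gate (68) ranged over 5 to 113 with 1 library left out. The difference in share (-0.488 percentage points) became 0.133 without requiring Cr2 for cells with at least 2 restricted markers, another added alternative, and ranged over -1.31 to 0.33 with 1 library left out, 0.129 without Notch2 cKO 1 and 0.332 without control 2. With 1 library left out, 1 group held a single batch, so these shares mix genotype with batch. The same holds for the genotype fits with 1 library left out. In them the log2 fold change of Hes1 ranged over -2.46 to 0.42 (without Notch2 cKO 2). That of Cxcl13 ran from -3.22 (without Notch2 cKO 2) to 5.72, with -1.05 without control 1. With no replicate block that of Cxcl13 was -0.054. Over all named genes and alternatives, 139 values kept direction and side of the threshold, 110 lost the call, 1 gained it and 4 reversed. The cause was not tested. Depth limits batch 1, where 7 and 34 cells were chosen, and 1 library a group limits the follicular dendritic-like cells.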
